A study of Homo sapiens with 27 samples.

Results

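The replication-dependent histone genes were the 34 rows of the count table whose Entrez ID carries a current symbol of the H2AC, H2BC, H3C or H4C series, or one of H1-1 to H1-6, with pseudogenes left out, among 24566 rows in all. They comprised 6 linker histone (H1) genes, 9 H2A genes, 10 H2B genes, 5 H3 genes and 4 H4 genes, and no member shared its Ensembl ID with another row. On GRCh37, 23 of them lie on chromosome 6, 9 on chromosome 1 and 1 (H4C16) on chromosome 12, while H2AC18 has no entry in the annotation used. Counts were present for 32 members, and H2AC1 and H2AC7 had 0 counts in every library. Genes of these series without a matched row, such as H2AC17, are not covered.

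Replication-dependent histone genes supply the core and linker histones that package newly made DNA, and their transcripts accumulate in S phase. Most of their messages are not polyadenylated but end just after a conserved stem-loop in the RNA, which is bound by SLBP, the stem-loop binding protein, and cut with the help of the U7 snRNP. Some members can also be read through to a polyadenylation signal further on, and such polyadenylated forms are known from cells that have left the cycle. These genes sit in clusters, and H2A and H2B genes often share a promoter region in divergent pairs.

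Total RNA was sequenced from 2 cancer cell lines after 48 h, in 27 libraries of 9 groups with 3 libraries each, which the design text calls biological replicates. MDA-MB-231, a human breast adenocarcinoma line, was untreated, or received Compound Kushen Injection (CKI, an extract of 2 medicinal plants) at 1 mg/ml, 5-FU (5-fluorouracil, an inhibitor of thymidylate synthesis) at 10 µg/ml, or CKI plus 5-FU. A431, a human epidermoid carcinoma line, was untreated, or received a vehicle control, CKI at 1 mg/ml, doxorubicin (a topoisomerase II poison that intercalates into DNA), or CKI plus doxorubicin. The sources do not say what the vehicle was or whether RNA was selected by its poly(A) tail, and the labels give more than one dose of doxorubicin without assigning it. A member's reads therefore measure its message as captured by these libraries, and tailed messages and messages without a tail cannot be told apart. Nor can a smaller share of cells in S phase be told apart from less message per cell in such bulk samples.

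The libraries held 17757206 to 22809339 counts, of which the members took between 0.0134% and 0.07%. The first untreated MDA-MB-231 library stood apart from the others of its group in its counts across all genes. Its summed member level was 203 CPM (counts relative to the total of the library) against 155 and 140 CPM. Some of the results that use it, but not all, are also given without it below. The lines kept their labels' markers: all 6 markers of A431 were higher in untreated A431 and all 3 markers of MDA-MB-231 were higher in untreated MDA-MB-231. Gene levels are CPM scaled by the trimmed mean of M-values (TMM), and a gene is called where the adjusted p lies under 0.05 and the change exceeds 1 in either direction on the log2 scale.

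The stem-loop is shown because it defines how these messages end, although it played no part in choosing the genes. It was searched on GRCh37 in the 300 bases after each stop codon, and it was found in all 33 members with an annotated window, but in 3 of 18584 other protein-coding genes of the table (0.0161%). Capitals mark the paired stem and lower case the loop.
20 members, among them H1-2, H2AC6, H2AC25, H2BC21 and H3C4: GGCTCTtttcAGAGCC
7 members, H1-1, H1-6, H2AC21, H2BC4, H2BC5, H2BC11 and H2BC12: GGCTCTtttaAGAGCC
4 members, all H4 genes: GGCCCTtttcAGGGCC
H2AC20: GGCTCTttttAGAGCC
H2AC11: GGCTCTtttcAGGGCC

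The annotation ended the transcripts in 2 distinct ways. For 21 members every annotated transcript stopped 3 to 6 bases after the stem-loop, whereas for 12 members at least one transcript ran on for 1729 to 37155 bases past it (H2AC1, H2AC6, H2AC25, H2BC4, H2BC5, H2BC11, H2BC15, H2BC18, H2BC21, H2BC26, H4C8 and H4C16). The members with a longer annotated transcript had a median level of 4.46 CPM over the 27 libraries, against 0.328 CPM for the others, and held 7 of the 10 highest members. Their share of member CPM was 49.7%, against 50.2% for the others, which include H2BC12 and H1-2. Both of these genes are also listed below as known in polyadenylated form. The annotated ends therefore do not divide tailed from untailed messages. The counting could not separate the forms, and reads between near-identical coding sequences, above all among the H3 and the H4 genes, may be split or lost. The exons of H2AC6, H2AC7, H2AC21, H2BC4, H2BC18, H2BC26, H3C4, H3C12 and H4C8 also overlap another annotated gene, and for unstranded libraries such reads cannot be assigned with certainty.

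Promoters are shown for the divergent pair H2AC20 and H2BC21, whose start sites lie 236 bases apart on chromosome 1, since the members of this pair changed in opposite directions under doxorubicin. The sequences are the 150 bases before each start in RefSeq (GRCh38.p14), chr1:149886768-149886917 on the plus strand for H2AC20 and chr1:149886683-149886832 on the minus strand for H2BC21. Capitals mark, on either strand, the CCAAT box, the TATA box spelled as TATAAA, and the octamer ATTTGCAT. The octamer marked for H2BC21 also lies in the 300-base promoter of H2AC20, outside the stretch shown for that gene. The promoters overlap, so the same site was counted for both genes, and it lies nearer to the start of H2BC21.
H2AC20: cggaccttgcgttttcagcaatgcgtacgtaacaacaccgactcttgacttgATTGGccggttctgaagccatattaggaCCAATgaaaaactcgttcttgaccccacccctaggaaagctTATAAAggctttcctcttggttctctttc
H2BC21: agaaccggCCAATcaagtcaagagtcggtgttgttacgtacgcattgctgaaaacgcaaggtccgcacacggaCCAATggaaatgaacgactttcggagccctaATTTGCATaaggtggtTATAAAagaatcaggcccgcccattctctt

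For contrast, the same stretch is given for the linker histone H1-2 (chr6:26056471-26056620, minus strand) and for H4C8 (chr6:26285535-26285684, minus strand), the members with the highest level in the H1 and the H4 family.
H1-2: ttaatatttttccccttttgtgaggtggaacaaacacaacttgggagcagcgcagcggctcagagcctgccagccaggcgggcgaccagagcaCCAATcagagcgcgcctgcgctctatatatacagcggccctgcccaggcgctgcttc
H4C8: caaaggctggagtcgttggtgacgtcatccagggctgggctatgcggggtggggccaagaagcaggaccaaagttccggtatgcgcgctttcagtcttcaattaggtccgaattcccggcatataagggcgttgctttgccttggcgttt

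RefSeq promoters of 300 bases, from 250 before the start to 50 after it, were matched for 32 members. The octamer was present in 6 of 9 H2A, 6 of 10 H2B and 1 of 4 H3 promoters and in no promoter of 6 H1 and 3 H4 genes. That is 40.6% of members against 1.77% of 35116 promoters. The 1 H3 match, for H3C4, lies in the same window as that matched for H2AC7 (chr6:26199294-26199443). This promoter was thus counted in both families. Promoters of divergent partners overlap too, so 1 match can count for both. CCAAT was found in 90.6% of members against 34.6% of all promoters, with none in the 3 H4 promoters. TATAAA was found in 68.8% of members against 11.5% of all promoters. These are matches of letters, not measured binding.

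A few members carried most of the signal. Over the 27 libraries H2BC12 had the highest mean level at 74.7 CPM, or 26.1% of all member CPM, followed by H1-2 (55.8 CPM), H2AC25 (42.8 CPM), H2AC6 (34.2 CPM), H2BC5 (21.2 CPM), H2BC21 (16.6 CPM) and H4C8 (12.6 CPM). Together these 7 genes gave 90.1% of the member signal, and no other member exceeded 5.35 CPM. By family, H2B genes held 44%, H2A genes 29.4%, H1 genes 20.2%, H4 genes 5.4% and H3 genes 0.942% of member CPM. These shares depend on which genes of each family had a row, and are not shares of all histone messages. Per kilobase of transcript, H2BC12 was at 151, H2AC25 at 83.9, H1-2 at 76.3 and H2AC6 at 65.9 RPKM (CPM divided by transcript length in kilobases), so that H2AC25 stood above H1-2 on this scale.

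**Figure D1:**
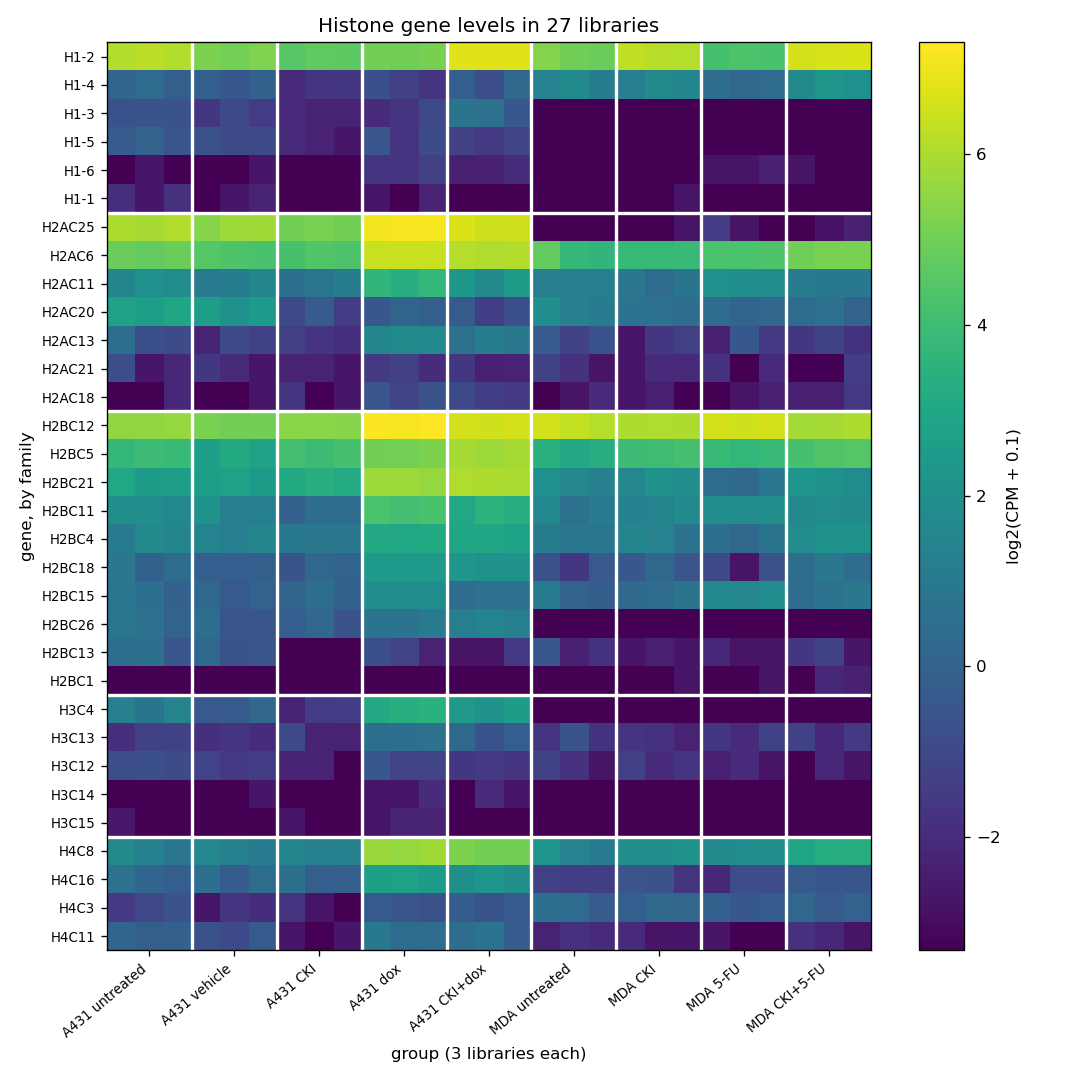
Level of the 32 members with any count (rows, ordered by family and then by mean level) in the 27 libraries (columns, 3 per group), as log2(CPM + 0.1). H2BC12, H1-2 and H2AC6 are bright throughout, H2AC25 is bright in A431 and near the floor in MDA-MB-231, and the 2 doxorubicin groups hold the highest levels of most H2A, H2B and H4 rows.

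The summed level of the 34 genes separated several groups. In A431 it was 261.9 ± 1.16 CPM (SD, n = 3) in untreated cells, 177.5 ± 2.86 with vehicle, 159.5 ± 4.33 with CKI, 625.8 ± 10 with doxorubicin and 572.6 ± 17.9 with CKI plus doxorubicin. In MDA-MB-231 it was 165.7 ± 32.8 CPM in untreated cells, 191.2 ± 2.35 with CKI, 171.3 ± 3.84 with 5-FU and 249.5 ± 12.2 with CKI plus 5-FU. The A431 libraries with doxorubicin lay above every library without it, and the libraries with CKI plus 5-FU lay above all other MDA-MB-231 libraries. With 3 libraries a group, an exact permutation test of a sum cannot reach a p below 0.1.

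Messages of H1-2, H2AC6, H2BC4, H2BC5, H2BC12 and H2BC21 are listed as known to occur in polyadenylated form. These 6 genes took 88.9% to 91.8% of member CPM in every MDA-MB-231 library but 57.6% to 72.7% in the A431 libraries, where H2AC25 took a large part of the rest.

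**Figure D2:**
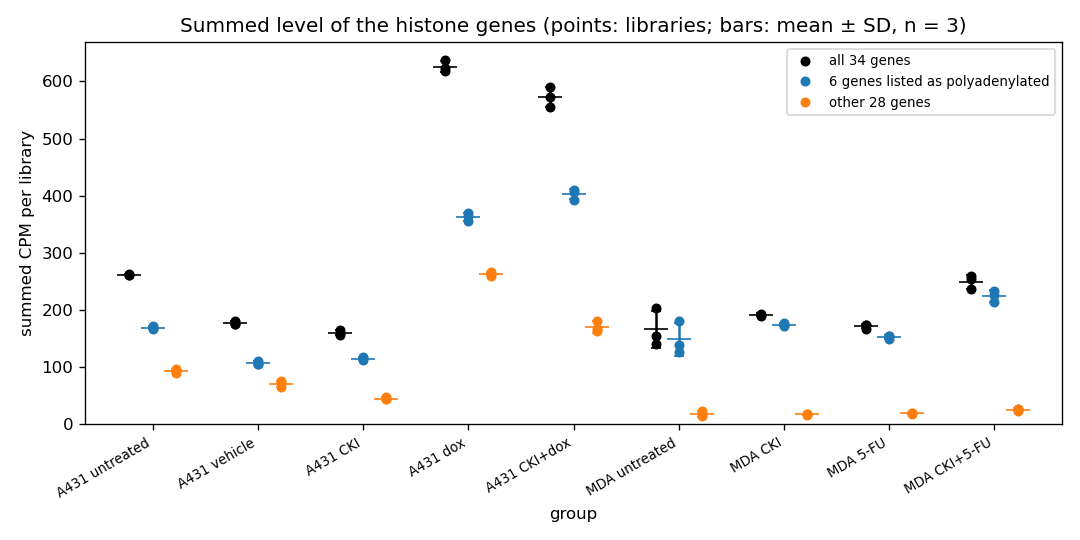
Summed CPM per library (vertical axis) by group (horizontal axis), for all 34 genes (black), for the 6 genes listed as polyadenylated (blue) and for the other 28 (orange). Points are libraries and bars the mean ± SD of 3. The doxorubicin groups stand highest at 554.6 to 637.1 CPM, and 1 untreated MDA-MB-231 library lies above the other two.

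The untreated cell lines were compared first. Of 22 members tested, 11 were higher and 2 lower in A431 than in MDA-MB-231 (background over all genes 22.5% higher and 20.4% lower), and their median log2 fold change was 0.91 against 0.09 for all genes. Of the 11, 4 (H2AC25, H2BC26, H3C4 and H1-5) had 0 counts in untreated MDA-MB-231 and passed the filter through A431, and with at least 10 counts required in every library 10 members were tested and 1 was called, as higher. The clearest difference was H2AC25, an H2A gene at chr1:228622478-228645574 on GRCh37, away from the other chromosome 1 members except H2BC26, with 62.9, 60.6 and 66.7 CPM in A431 and 0 counts in all 3 untreated MDA-MB-231 libraries. At a floor of 3 counts per library this is at least 450-fold higher. Its divergent partner H2BC26, whose start lies 230 bases away, was at 1.68, 1.49 and 0.932 CPM in A431 and had 0 counts in all 12 MDA-MB-231 libraries, at least 9.72-fold higher.

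Other members were also listed with counts in A431 only. H3C4, the H3 gene with the highest level, was at 2.34, 1.65 and 2.61 CPM in untreated A431 and at 0 in all 12 MDA-MB-231 libraries, at least 15.6-fold higher. The linker histone gene H1-5 had 0.72, 0.938 and 0.621 CPM against 0, at least 5.39-fold higher. H1-3, another linker gene that was too low to be tested across the lines, had 0.54, 0.552 and 0.559 CPM in untreated A431 and 0 counts in every MDA-MB-231 library.

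Differences in the other direction were fewer. H1-4, a linker histone gene, was at 1.02, 1.21 and 0.807 CPM in A431 and at 2.52, 3.18 and 2.11 CPM in MDA-MB-231 (2.47-fold lower in A431, log2 fold change -1.30, SE 0.23, adjusted p = 0.000184), without overlap of the groups. The other was H4C3 (2.67-fold lower, adjusted p = 0.00797). H1-2 was higher in A431 with 66.7, 72.9 and 67 CPM against 40.2, 32 and 29.8 CPM (log2 fold change 1.07, SE 0.10, adjusted p = 5.85e-07), yet this lies at the fold threshold, and the call was lost under 11 of 16 alternatives, among them the omission of library 2 or 3 of A431 or of library 3 of MDA-MB-231. H2BC12, the most abundant member, was lower in A431, but by less than the fold threshold (log2 fold change -0.74). With offsets for GC content and transcript length 8 members were higher and 3 lower: H2BC12 was then called lower (-1.27, adjusted p = 3.96e-10 with edgeR), and H1-2, H2AC20 and H2BC18 were no longer called higher.

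With doxorubicin, the histone genes gave more calls than in any other comparison within a line. Of 24 members tested, 15 rose and 5 fell, where 23% of all genes tested rose and 14.3% fell, and the median log2 fold change was 1.43 against 0.02 over all genes. Which members rose differed by family: 7 of 9 H2B genes and 4 of 5 H2A genes rose, as did both H3 genes tested and 2 of 4 H4 genes, whereas 3 of the 4 H1 genes tested fell and the other, H1-5, had a log2 fold change of -0.90 under the threshold. H1-6 was too low to be tested, with 0, 1 and 0 counts in untreated and 4, 4 and 6 counts in treated libraries.

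H4C8, one of the genes encoding histone H4, showed the steepest rise. It was at 3.12, 2.48 and 1.68 CPM in untreated libraries and at 52, 49.2 and 55.3 CPM with doxorubicin, which is 20.6-fold higher (log2 fold change 4.37, SE 0.13, adjusted p = 2.32e-18). No untreated library came near the treated ones. H2BC21, the H2B gene of the chromosome 1 pair shown above, went from 7.86, 5.79 and 6.15 CPM to 53.2, 53.2 and 48.7 CPM, 7.57-fold higher (SE 0.09 on the log2 scale, adjusted p = 9.04e-18). H2BC12 went from 46.5, 47 and 48.6 CPM to 151, 143 and 158 CPM, 3.07-fold higher (adjusted p = 1.06e-16), with no overlap for either gene.

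The remaining abundant core histone genes rose together with them. H2AC6 was at 28.8 ± 1.84 CPM (SD, n = 3) without and 84.8 ± 0.787 CPM with doxorubicin (2.85-fold, adjusted p = 6.92e-15). H2AC25 rose 2.18-fold to 138, 148 and 143 CPM (log2 fold change 1.12, SE 0.08), and H2BC5, whose message is among those known in polyadenylated form, rose 2.33-fold to 33, 33.7 and 36.5 CPM, a call that was lost with offsets for GC content and length (log2 fold change 0.96). H2BC11 (5.20-fold), H4C16 (5.44-fold), H3C13 (4.77-fold), H3C4 (4.33-fold), H2BC18 (3.96-fold), H2AC13 (3.88-fold), H2AC11 (3.42-fold), H2BC4 (3.09-fold) and H2BC15 (2.55-fold) also rose, of which H3C13, H2AC13 and H2BC15 stayed under 4 CPM in every library.

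H2AC20 went the other way, although it shares its promoter region with H2BC21. It was at 6.66, 6.01 and 7.45 CPM in untreated A431 and at 0.649, 1.01 and 0.82 CPM with doxorubicin, 8.33-fold lower (log2 fold change -3.06, SE 0.24, adjusted p = 4.97e-11). The groups lay far apart. A second divergent pair, H2AC13 and H2BC13, with starts 244 bases apart on chromosome 6, split likewise: H2AC13 rose (log2 fold change 1.96, SE 0.30) while H2BC13 fell from 1.32, 1.43 and 0.621 CPM to 0.5, 0.354 and 0.103 CPM (log2 fold change -1.85, SE 0.48, adjusted p = 0.00148). In the pairs H2AC6 with H2BC4 and H2AC11 with H2BC11 both members rose, and in the pair H2AC25 with H2BC26 the first rose and the second had a log2 fold change of 0.25 (SE 0.28) that did not pass.

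**Figure D3:**
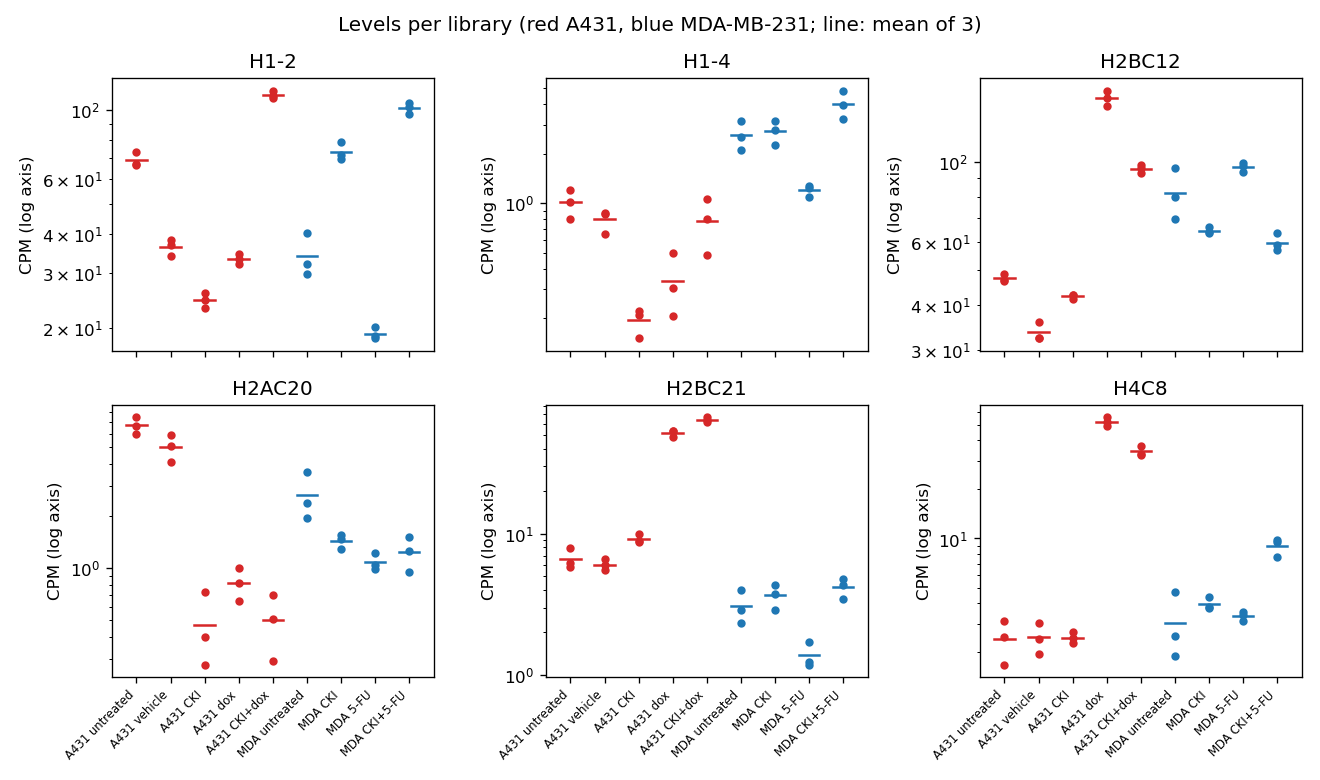
CPM per library (log axis) of 6 members in the 9 groups, A431 in red and MDA-MB-231 in blue, with a line at the mean of 3 libraries. H2BC21 and H4C8 are highest in the 2 doxorubicin groups, H2AC20 is lowest in A431 with CKI, doxorubicin or both, and H1-2 is highest where CKI was combined with a second drug, at 111 CPM in A431 and 101 CPM in MDA-MB-231.

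Of the 3 linker histone genes called lower under doxorubicin, H1-4 was also called against the vehicle control (log2 fold change -1.29). H1-4 was at 1.02, 1.21 and 0.807 CPM in untreated and at 0.5, 0.304 and 0.205 CPM in treated libraries (3.09-fold lower, adjusted p = 0.000505), and H1-3 was 2.22-fold lower (adjusted p = 0.0344), but its log2 fold change against the vehicle control was -0.33 (adjusted p = 0.574). H1-2 was 2.15-fold lower at 33.2, 32.1 and 34.5 CPM (log2 fold change -1.10, SE 0.06, adjusted p = 3.76e-13). H1-2 was, however, also low in the vehicle control, at 36.8, 33.9 and 38.3 CPM. Against that control its log2 fold change with doxorubicin was -0.20, with library size as the only scaling it was -0.76, and with the 10-count filter described next it was -0.94, so the call was lost in all 3 cases. Against the vehicle control 17 members rose and 3 fell, and the share of all genes called in that comparison is not given here. With at least 10 counts required in every A431 library, 14 members were tested and none was called lower with edgeR. H1-3, H1-4, H2AC20 and H2BC13 each had an A431 library under 10 counts. They were not among the members tested, so this filter could not test their falls.

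CKI alone gave a different picture in A431. None of the 24 members was called higher with edgeR (1 was positive at an unadjusted p under 0.05, and DESeq2 called 0 higher), whereas 12 were called lower, where 12% of all genes were higher and 10.4% lower. The median log2 fold change of the members was -1.01. All 4 H1 genes tested fell, along with 3 H2A, 2 H2B, 1 H3 and 2 H4 genes.

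H1-2 dropped to 23.2, 25.9 and 24.6 CPM from the untreated 66.7, 72.9 and 67 CPM (2.95-fold lower, log2 fold change -1.56, SE 0.07, adjusted p = 2.09e-15). Against the vehicle control its log2 fold change was -0.66, under the fold threshold. H2AC20 fell 14.7-fold to 0.403, 0.728 and 0.277 CPM (SE 0.26 on the log2 scale, adjusted p = 8.12e-12). H3C4 fell from 2.34, 1.65 and 2.61 CPM to 0.101, 0.26 and 0.277 CPM, 10.6-fold lower (SE 0.36, adjusted p = 1.37e-08). None of these 3 genes had overlapping groups.

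Several of the members that fell with CKI had few reads. H2BC13 had 0 counts in all 3 CKI libraries, at least 7.65-fold lower than in untreated cells, and H4C11 had 2 counts in the 3 CKI libraries together against 46. H1-5 (7.23-fold lower), H1-4 (5.39-fold lower), H1-3 (4.51-fold lower), H4C3 (4.45-fold lower), H2AC13 (3.37-fold lower), H2BC11 (3.20-fold lower) and H2AC11 (2.07-fold lower) completed the list. By contrast H2BC12 stayed at 42.5, 42.6 and 41.6 CPM against 46.5, 47 and 48.6 CPM (log2 fold change -0.23, SE 0.06). The sign of that value turned with offsets for GC content and length (0.23) and against the vehicle control (0.24). H4C8, H2BC5 and H2BC21 had log2 fold changes of -0.05, 0.19 and 0.41, and that of H4C8 was 0.36 with offsets. With at least 10 counts in every A431 library 14 members were tested and 3 were called lower, and members with fewer counts were not tested. Measured against the vehicle control 7 of 24 members were lower and 1, H2BC5, was higher (1.13). The share of all genes called against that control is not given here. The calls of H1-2, H1-3, H2AC11, H2AC13 and H4C3 were lost against that control, and that of H2AC11 also with offsets (-0.56).

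The members were also divided by their annotated transcript ends. This division was made after the values were seen, and it is given without a test. H1-2 and H2BC12, though listed as polyadenylated, fall in the set annotated to the stem-loop only. Of the 11 tested members with a transcript annotated past the stem-loop, 10 rose and 0 fell with doxorubicin (median log2 fold change 1.63), and 1 fell with CKI (median -0.60). Of the 13 tested members annotated to the stem-loop only, 5 rose and 5 fell with doxorubicin (median 0.57), and 11 fell with CKI (median -2.17). All 11 of the former had positive fold changes with doxorubicin. The 2 comparisons share the untreated libraries. Against the vehicle control both gaps between the medians were narrower: with CKI 6 of the 13 fell (median -1.36) and 1 of the 11 rose and 1 fell (median -0.13), and with doxorubicin 7 of the 13 rose and 3 fell (median 1.36) while 10 of the 11 rose (median 2.16). With offsets for GC content and transcript length, 9 and 0 of the 11 rose and fell with doxorubicin, and 10 of the 13 fell with CKI. The members annotated to the stem-loop only were mostly low, and the part of their level in this difference was not tested.

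**Figure D4:**
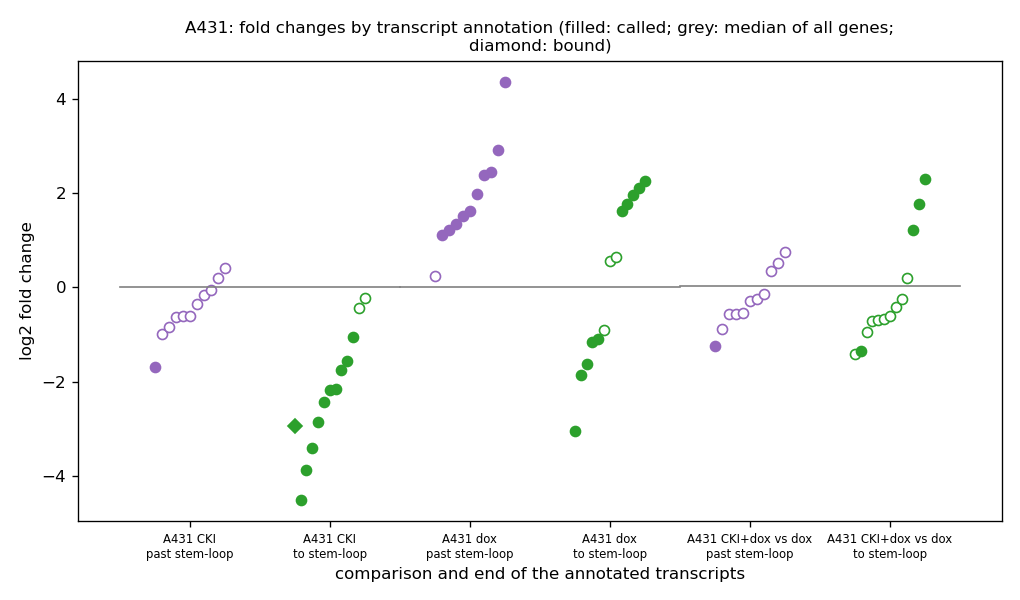
log2 fold change (vertical axis) of the members tested in A431, with those whose transcripts are annotated past the stem-loop in purple (11) and those annotated to it in green (13), for 3 comparisons. Filled points were called, the diamond is H2BC13 at its bound, and the grey line is the median of all genes. With CKI the green points lie lowest, and with doxorubicin all purple points lie above 0.

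Genes of S phase and of histone supply, which are not members, are given beside these results. With CKI in A431, all 20 genes of a list of S phase genes (MCM helicase subunits, E2F factors and nucleotide synthesis among them) fell, with a median log2 fold change of -2.19, for example MCM3 (-2.53, SE 0.05) and MCM4 (-2.24, SE 0.06), both subunits of the replicative helicase, where 10.4% of all genes fell. With doxorubicin 2 of the 20 were called lower (MCM5 at -1.64 and MCM6 at -1.34), where 14.3% of all genes fell, and the others did not pass. Of 15 histone chaperone genes, 8 fell with CKI, among them ASF1B (-2.42), which hands new H3 and H4 to the assembly factors, and NASP (-1.93), a carrier of H3 and H4. With doxorubicin 3 of the 15 fell, among them SSRP1 (-1.32), a subunit of the FACT complex.

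Genes that transcribe, process or degrade histone messages formed another list, to be read beside the 12% of all genes that rose and 10.4% that fell with CKI, and the 23% and 14.3% with doxorubicin. Of 19 such genes, 1 rose and 2 fell with CKI in A431: TUT7, a uridylyltransferase of histone message decay (1.07), CSTF2, a cleavage factor (-1.16), and MBLAC1, a nuclease of histone pre-mRNA (-1.29). With doxorubicin HINFP, an activator of H4 transcription, rose (1.21) and LSM10, a protein of the U7 snRNP, fell (-1.13). Of 12 replication-independent variant genes, 5 fell with CKI in A431, with H2AZ1 (-1.56) and H2AX (-2.47) among them. With doxorubicin 4 fell, among them H2AZ2 (-1.19), a variant of H2A, and H2AJ rose (1.22).

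The vehicle control itself differed from untreated A431. Of the 24 members, 0 were called higher (edgeR, DESeq2 and an unadjusted p under 0.05 all gave 0) and 2 were lower, H3C4 at 0.69, 0.703 and 1.04 CPM (2.65-fold lower, adjusted p = 0.000284) and H2AC13 (2.38-fold lower, adjusted p = 0.0369), where 1.05% of all genes were higher and 1.5% lower. Fold changes of all genes followed GC content in this comparison (Spearman's rho -0.58 across genes, which are not independent), and the members are GC-rich with a median of 58.2% against 48.4% for all genes. With offsets for GC content and length, H3C4 was still called lower while H2AC13 was not (-0.86, adjusted p = 0.2 with edgeR), and the median log2 fold change of the 21 members annotated to the stem-loop, of which 13 were tested, moved from -0.68 to -0.28. The call of H2AC13 was lost under 5 of 15 alternatives, among them leaving out the first untreated library (-0.59) or library 1 (-0.90) or 3 (-1.30) of the vehicle control.

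Adding CKI to doxorubicin raised 3 of the 4 linker histone genes tested. Compared with doxorubicin alone 3 of 24 members rose, all of them H1 genes, and 2 fell, where 6.89% of all genes rose and 8.03% fell. H1-2 went from 33.2, 32.1 and 34.5 CPM to 111, 109 and 115 CPM, 3.42-fold higher (log2 fold change 1.78, SE 0.06, adjusted p = 2.93e-16), above every other A431 library. H1-3 went from 0.15, 0.203 and 0.41 CPM to 1.59, 1.45 and 0.659 CPM (log2 fold change 2.30, SE 0.40, adjusted p = 2.95e-05), with no overlap.

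The third, H1-4, rose from 0.5, 0.304 and 0.205 CPM to 0.797, 0.483 and 1.06 CPM (log2 fold change 1.22, SE 0.39, adjusted p = 0.00898). Its groups overlapped, and without library 3 of either group the log2 fold change was 0.97 or 0.95, under the threshold. H1-5, the other H1 gene tested, had a log2 fold change of -0.42 (SE 0.43). Among the core histone genes, H2BC5 went from 33, 33.7 and 36.5 CPM to 58, 54.3 and 58.1 CPM (log2 fold change 0.75, SE 0.08, adjusted p = 2.43e-08), without overlap but under the fold threshold, and with offsets for GC content and length it was called higher (1.03). H2AC11 fell from 12.6, 10.3 and 13.2 CPM to 4.97, 3.33 and 5.47 CPM (2.57-fold lower, adjusted p = 9.62e-08), and H2BC15 fell 2.38-fold (adjusted p = 1.48e-05), a call lost with those offsets (-0.96). H2BC12 was at 96.4, 93.3 and 98.1 CPM against 151, 143 and 158 CPM (log2 fold change -0.62, SE 0.06), lower in every library but under the fold threshold. H2BC21 (0.34) and H4C8 (-0.57) likewise stayed under it. Of the S phase genes, 18 of 20 fell in this comparison, with E2F1 at -2.41.

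Whether the effect of CKI differed in the presence of doxorubicin was tested as an interaction. For 10 of 24 members the CKI effect was higher with doxorubicin than without it, and for 0 it was lower (edgeR and DESeq2, while 3 were negative at an unadjusted p under 0.05). Of all genes, 8.56% were called higher and 10.9% lower. Only H1-2, H1-3 and H1-4 were called higher when CKI was added to doxorubicin. H2AC20 (-0.68), H3C4 (-0.94), H1-5 (-0.42), H4C11 (-0.24) and H2BC13 (-1.41) had negative log2 fold changes there. For these genes the interaction means a smaller fall than with CKI alone, not a rise. With doxorubicin alone H2AC20 was already at 0.828 CPM against 6.71 CPM untreated, H1-5 at 0.421 against 0.76 and H2BC13 at 0.319 against 1.12. These genes thus had less level left to lose, and the part of this in the interaction was not tested. H3C4 (9.83 against 2.2 CPM) and H4C11 (1.47 against 0.906 CPM) were instead higher with doxorubicin. Of these 10 members, 9 belong to the set annotated to the stem-loop only, which held 13 of the 24 tested. The interaction reuses the CKI and untreated libraries whose values were seen before that division, so this is no separate support for it. H1-2 had an interaction of 3.33 on the log2 scale (SE 0.09, adjusted p = 2.05e-17), H1-4 of 3.65 (SE 0.58) and H1-3 of 4.47 (SE 0.70). With at least 10 counts in every A431 library 2 of the 10 calls were made. Of the 10, only H1-2 and H2BC26 passed that filter, and the others were not tested.

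In MDA-MB-231, CKI alone changed 1 of 16 members tested. H1-2 rose from 40.2, 32 and 29.8 CPM to 78.5, 71.6 and 69.6 CPM (2.16-fold higher, log2 fold change 1.11, SE 0.10, adjusted p = 6e-06), while 3.76% of all genes rose and 2.21% fell. No member was called lower with edgeR or DESeq2, and 3 were negative at an unadjusted p under 0.05 with edgeR. H2BC5 was 1.69-fold higher (adjusted p = 0.000231) and H2BC12 1.27-fold lower (adjusted p = 0.0152), both under the fold threshold. Of the S phase genes 2 of 20 fell (TYMS at -1.04 and E2F2 at -1.46).

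The response of the 2 lines to CKI was compared directly. For 5 of 22 members the log2 fold change with CKI was lower in A431 than in MDA-MB-231, and for 0 it was higher (edgeR and DESeq2, and 0 at an unadjusted p under 0.05), where 9.62% and 8.87% of all genes were called. Among the 22, H3C4, H1-5 and H2BC26 had 0 counts in every MDA-MB-231 library and passed the filter through A431. They could not be called in either direction. H2AC25 had 0 counts in untreated MDA-MB-231 and 0, 0 and 1 with CKI there. H1-2 had the clearest difference, falling in A431 and rising in MDA-MB-231 (interaction -2.66, SE 0.15, adjusted p = 3.75e-08). H2AC20 (-3.00, SE 0.42), H1-4 (-2.50, SE 0.43), H2BC11 (-2.05, SE 0.35) and H4C11 (-3.71, on 2 counts in the A431 CKI libraries) were the others. Without the first untreated MDA-MB-231 library 9 members were called. For 16 of the 20 S phase genes the response was lower in A431 as well.

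With 5-FU in MDA-MB-231, 1 of 16 members rose and 3 fell, where 6.01% of all genes rose and 7.31% fell. H2BC15, an H2B gene of the chromosome 6 cluster, rose from 1.94, 0.922 and 0.785 CPM to 3.01, 2.93 and 3.42 CPM (2.61-fold, adjusted p = 0.000955), with no overlap. H2AC20 fell from 3.62, 2.4 and 1.96 CPM to 1.23, 0.992 and 1.04 CPM (2.40-fold lower, adjusted p = 0.000884), and its divergent partner H2BC21 fell from 3.99, 2.9 and 2.35 CPM to 1.23, 1.18 and 1.71 CPM (2.21-fold lower, adjusted p = 0.00189). Neither of these 2 was called without the first untreated library, when their log2 fold changes were -0.99 and -0.93.

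H1-4 was the third member that fell, from 2.52, 3.18 and 2.11 CPM to 1.28, 1.09 and 1.23 CPM (log2 fold change -1.11, SE 0.23, adjusted p = 0.00122). The call was lost without the second untreated library (-0.93), with library size alone (-0.98) and with offsets for GC content and length (-0.97). H1-2 was at 18.5, 20.1 and 18.8 CPM, below all untreated libraries, with a log2 fold change of -0.81 (SE 0.10, adjusted p = 2.91e-05) under the threshold. Of the S phase genes RRM2 (1.27), CCNE2 (1.25) and 1 more rose and MCM6 (-1.22) fell. The linker variant H1-10 (-2.04), which is not a member, fell.

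Adding CKI to 5-FU raised 6 of 16 members and lowered 1, where 5.26% of all genes rose and 4.51% fell, and the median log2 fold change was 0.68 against 0.01 for all genes. H1-2 went from 18.5, 20.1 and 18.8 CPM to 96.9, 102 and 105 CPM, 5.28-fold higher (log2 fold change 2.40, SE 0.10, adjusted p = 1.38e-08). H1-4 went from 1.28, 1.09 and 1.23 CPM to 3.27, 4.83 and 3.98 CPM (3.35-fold, adjusted p = 3.57e-05). In both genes every combined library lay above every library of 5-FU alone.

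Core histone genes rose here as well. H2BC4 went from 1.37, 1.09 and 1.61 CPM to 3.41, 4.3 and 4.12 CPM (2.90-fold, adjusted p = 0.000134), H2BC21 was 3.04-fold, H4C8 2.68-fold and H2BC18 4.44-fold higher. The value for H2BC18 (SE 0.47 on the log2 scale) rests on 9, 1 and 11 counts with 5-FU alone. H2BC15 fell 2.05-fold (adjusted p = 0.00572), a call that was lost without library 3 of 5-FU (-0.96) or the first library of CKI plus 5-FU (-0.89). H2BC12 was at 57, 58.7 and 63.3 CPM against 99.3, 93.9 and 97.7 CPM (log2 fold change -0.70, SE 0.10), lower in every library and under the fold threshold. Of the S phase genes 6 of 20 fell (RRM2 at -1.49), while H1-10 (1.64) rose.

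Whether the CKI effect in MDA-MB-231 depended on 5-FU was again tested as an interaction. It was higher with 5-FU for 7 of 16 members (H1-2, H1-4, H2AC6, H2AC20, H2BC4, H2BC21 and H4C8) and lower for H2BC15 alone, where 3.04% and 3.81% of all genes were called. H1-2 had an interaction of 1.29 (SE 0.14, adjusted p = 5.67e-05) and H1-4 of 1.67 (SE 0.29, adjusted p = 0.0013). With offsets for GC content and length H4C8 was not called (0.82). Without the first untreated library 4 members were called higher, H1-2, H1-4 and H2BC21 among them. The calls of H2AC6, H2AC20, H2BC4 and H4C8 were therefore not all kept. That library was above the other untreated ones for H2AC6 (26.6 CPM against 13.6 and 12.6), H4C8 (4.67 against 2.54 and 1.91) and H2AC20 (3.62 against 2.4 and 1.96). The call of H2BC15 was lost on leaving out any library other than the first untreated one.

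**Figure D5:**
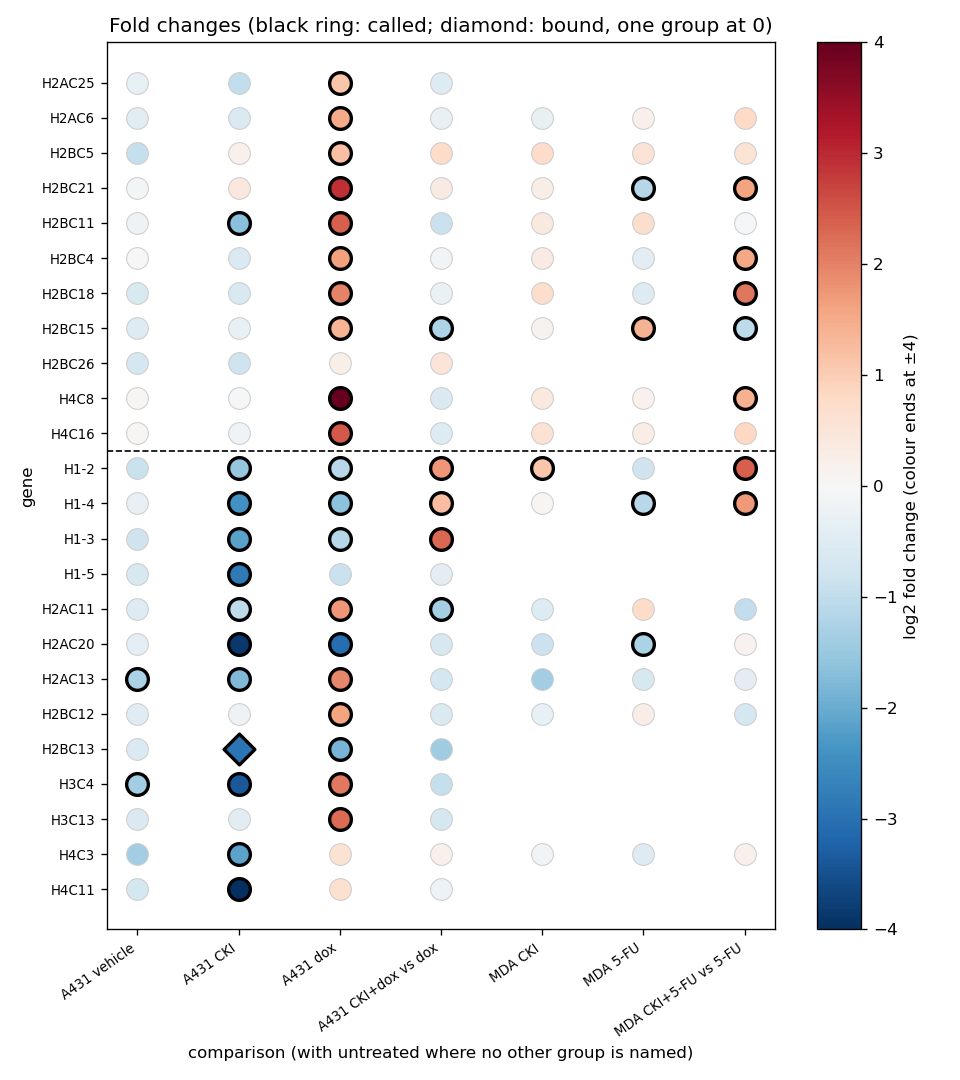
log2 fold change (colour, ending at ±4) of each tested member (rows) in 7 comparisons (columns). Members above the dashed line have a transcript annotated past the stem-loop. A black ring marks a call and the diamond a bound. The doxorubicin column is red for 10 of the 11 rows above the line with a ring, the A431 CKI column carries 11 of its 12 rings below it, and H1-2 is blue with CKI alone in A431 but red in MDA-MB-231 and in both combinations.

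H1-2 took its highest level in each line where CKI was combined with the second drug, at 111 ± 3.09 CPM (SD, n = 3) in A431 and 101 ± 3.97 CPM in MDA-MB-231, and its lowest with CKI in A431 and with 5-FU in MDA-MB-231. H2BC12 ran the other way in MDA-MB-231, where its mean was 59.7 CPM with CKI plus 5-FU, next to 64.4 CPM with CKI alone. Across the 9 group means, the genes whose summed-histone pattern was most alike by Spearman's rho were PIPSL, LACTB2-AS1 and MPLKIP (each 0.983), TRPM6 (0.967) and COX7B (0.95), as a description over 9 points that share cell lines and controls.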

How the data were processed

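RNA of 27 libraries (9 groups, 3 replicates) had been sequenced in unstranded paired reads, trimmed with Trim Galore (0.3.7) and aligned to hg19 with STAR (2.5.3a), per the labels and the submitters' processing notes; the counting tool and its annotation are not given in the sources used here. The authors deposited raw counts per gene, of 17757206 to 22809339 per library. Symbols came from RefSeq (GRCh38.p14), matched for 24422 of 24566 Entrez IDs, and coordinates, stem-loops, lengths and GC content from GENCODE 44 lifted to GRCh37.

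Counts were tested with edgeR (4.0.16) in R (4.3.3): TMM, filterByExpr, glmQLFit and glmQLFTest over all groups of a line, or over the untreated and CKI groups of both lines for comparisons between them, with p-values adjusted by Benjamini-Hochberg over all genes tested. The fit kept 24 members in A431, 16 in MDA-MB-231 and 22 across lines, and a member can pass this filter through the group where it is high. SE is the fold change divided by the root of F. Levels are CPM with TMM over all 27 libraries, and bounds use 3 counts per library. The scripts were tested on simulated data.

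Named were, per family, the 3 members of highest level, per comparison the 3 called members of smallest adjusted p in each direction, and the 6 listed as polyadenylated. Other members were named after their values were seen. From each other list the 2 called genes of smallest adjusted p in each direction were named, as were the 5 genes most alike in pattern. A gene of the lists that this rule names is not reported here. Members and lists were chosen with earlier results of these data known. Alternatives were RLE factors, library size alone, DESeq2 (1.42.0), other count filters, 1 row per Ensembl ID, offsets for GC content and length, a replicate block, the vehicle control as reference, only the compared groups, the adjusted p alone, and leaving out each library. Replicate numbers did not clearly pair libraries (r from -0.406 to 0.198 over 51 pairs of same-numbered libraries, 8 of them above 0.1). For doxorubicin against untreated, however, 5 of 6 libraries matched best with their own number (mean r 0.057). For CKI in MDA-MB-231 it was 4 of 6 (mean r 0.091). Replicates of every group differed by more than sampling noise.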

Additional observations from a re-analysis of the deposited data

Results flagged for a closer look

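For 23 combinations of member and contrast the effect of a treatment differed between 2 settings by the interaction term of edgeR. Each value below is that difference in log2 fold change.

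In MDA-MB-231 the effect of CKI was higher with 5-FU than without it for H1-4 (1.67, SE 0.29), H2BC21 (1.34, SE 0.33), H1-2 (1.29, SE 0.14), H2BC4 (1.22, SE 0.32), H2AC6 (1.11, SE 0.30), H2AC20 (1.05, SE 0.36) and H4C8 (1.03, SE 0.34), and lower for H2BC15 (-1.17, SE 0.41). The last 3 of these 8 had adjusted p-values of 0.0436, 0.0377 and 0.0454. Without the first untreated library 4 members were called higher, H1-2, H1-4 and H2BC21 among them.

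In A431 the effect of CKI was higher with doxorubicin than without it for H1-3 (4.47, SE 0.70), H4C11 (4.27, SE 0.73), H1-4 (3.65, SE 0.58), H1-2 (3.33, SE 0.09), H2AC20 (3.19, SE 0.51), H3C4 (2.46, SE 0.41), H1-5 (2.44, SE 0.70), H4C3 (2.35, SE 0.76) and H2BC26 (1.36, SE 0.40). The value for H2BC13 (6.05, SE 1.75) rests on 0 counts with CKI alone, so its size depends on the prior count, and that of H4C11 rests on 2 counts there. A higher effect can be a smaller fall: H2AC20, H3C4, H1-5, H4C11 and H2BC13 had negative fold changes when CKI was added to doxorubicin.

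Between the lines, the effect of CKI was lower in A431 than in MDA-MB-231 for H4C11 (-3.71, SE 0.99), H2AC20 (-3.00, SE 0.42), H1-2 (-2.66, SE 0.15), H1-4 (-2.50, SE 0.43) and H2BC11 (-2.05, SE 0.35).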

How the results depend on the processing

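Of the 40 called fold changes that the rule named, 0 changed sign under the alternatives and 12 lost the call under at least 1. Values short of a call did change sign, such as those of H2BC12 and H4C8 with CKI in A431 given above and H2AC25 with vehicle (-0.33, and 0.24 with offsets). The numbers below are members called. With the adjusted p alone, lower calls became 3 (CKI in MDA-MB-231), 3 (CKI plus 5-FU against 5-FU), 7 (vehicle), 11 (CKI plus doxorubicin against doxorubicin) and 3 (CKI by doxorubicin), and higher calls 2 (CKI in MDA-MB-231), 5 (5-FU), 1 (CKI in A431) and 5 (CKI plus doxorubicin against doxorubicin). Library size alone gave 3 lower with doxorubicin and 1 lower for CKI by doxorubicin, and placed the median log2 fold change of all genes at 0.36 for doxorubicin, 0.13 for 5-FU and 0.11 for CKI in A431. Without a count filter H2BC15 was not called in CKI by 5-FU (0 lower).

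At 10 counts in every library, where few members were left, lower calls were 0 (vehicle), 3 (CKI in A431), 0 (doxorubicin), 0 (between untreated lines) and 2 (line by CKI), and higher calls 1 (CKI plus doxorubicin against doxorubicin), 2 (CKI by doxorubicin) and 1 (between untreated lines). Only the compared groups gave 1 lower with vehicle. Offsets for GC content and length gave lower calls of 2 (CKI plus 5-FU against 5-FU), 1 (vehicle), 1 (CKI plus doxorubicin against doxorubicin) and 1 (CKI by doxorubicin). The vehicle control as reference gave 1 higher and 7 lower with CKI, 3 lower with doxorubicin, and 1 lower for CKI by doxorubicin.

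The replicate block gave 0 lower in CKI by 5-FU and 1 lower between untreated lines. With offsets as well, the block gave lower calls of 2 (CKI plus 5-FU against 5-FU), 1 (vehicle), 1 (CKI plus doxorubicin against doxorubicin) and 1 (CKI by doxorubicin), and 6 higher between untreated lines. It kept the other counts within 1.5 times, and same-numbered libraries were each other's best match for all libraries of a comparison in none of the 8. The most was 5 of 6 libraries, for doxorubicin against untreated.

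Leaving out 1 library, lower calls ranged from 1 to 4 (5-FU), 0 to 1 (CKI in MDA-MB-231 and both treatment interactions), 2 to 4 (CKI plus doxorubicin against doxorubicin), 1 to 3 (vehicle) and 4 to 9 (line by CKI), and higher calls in CKI by 5-FU from 4 to 7. Counts moved by over 1.5 times without untreated library 1 of MDA-MB-231 (5-FU, line by CKI and the higher calls of CKI by 5-FU) and library 3 of that group (CKI in MDA-MB-231), library 3 of CKI plus doxorubicin, library 3 of vehicle, or library 1 of untreated or library 3 of CKI-treated A431.

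The summed level moved by over 1 SD with RLE factors to 255.7 (untreated A431), 173.6 (vehicle), 647.7 (doxorubicin) and 602.1 CPM (CKI plus doxorubicin). With library size alone it was 236.2, 162.2, 691 and 633.6 CPM in these groups, 147.9 with CKI in A431, 180.4 with 5-FU and 264.9 with CKI plus 5-FU. The cause of these changes was not tested. Depth limits the low members: 3 counts were 0.132 to 0.169 CPM, and members under this level cannot be separated from 0.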
